A study of Danio rerio with 27 samples.

Results

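The integrin genes of zebrafish were followed across 27 RNA libraries of cells sorted as metaphocyte progenitors, the cells that give rise to the myeloid-like metaphocytes of skin and gill. The sorted mutant cells differed from sibling cells in the markers given below, so the name may not describe them. Members were all rows of the deposited gene table whose symbol begins with itga or itgb, which gave 35 of 32520 genes. Of these, 33 encode integrin subunits, 21 alpha and 12 beta, while itgb1bp1 encodes a protein that binds an integrin tail and itgbl1 encodes an integrin-like protein that is no receptor subunit. By textbook ligand and tissue use, the 33 subunits were grouped as 6 leukocyte, 10 epithelial, 4 beta1, 7 RGD- and fibronectin-binding, 4 mesenchymal collagen- and laminin-binding and 2 other subunits.

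All libraries came from adult fish of the strain Tg(spic:EGFP; mpeg1:DsRedx), and each held 30 cells sorted as positive for the spic:EGFP reporter and negative for the mpeg1:DsRedx reporter. The reporters were thus present in controls and mutants alike, and spic, an Ets-family transcription factor, was both the mutated gene and the source of the promoter used for sorting. There were 7 sibling and 7 spic mutant libraries of epidermis and 5 sibling and 8 spic mutant libraries of gill. The labels call the controls siblings without giving their genotype and give no word on whether replicate libraries are separate animals; the p-values thus refer to the scatter among libraries, part of which may be technical.

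Integrins are cell-surface receptors made of 1 alpha and 1 beta subunit, and the pairing sets the ligand. On keratinocytes, alpha3 with beta1 and alpha6 with beta4 hold cells to laminin, and alphav with beta6 binds and activates latent TGF-beta; on leukocytes, the beta2 and beta7 chains pair with alpha chains such as alphaM and alphaE for adhesion to other cells. The cytosolic proteins talin and kindlin bind the beta tail and switch the receptor on, which in blood cells depends on kindlin-3, and the ilk, pinch and parvin proteins link the tail to actin.

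The mutant label was checked on spic itself, which stood at 637.9 ± 76.3 TPM (SD, n = 7) in sibling and 38.9 ± 40.5 TPM (SD, n = 7) in mutant epidermis, and at 292.7 ± 132.3 TPM (SD, n = 5) and 18.8 ± 17.7 TPM (SD, n = 8) in gill. The gene mpeg1.1, also planned as a check, had a mutant change of -6.47 in epidermis and -5.01 in gill on the log2(TPM + 1) scale. Its transcript was thus present in sibling cells, although they were sorted as negative for the mpeg1:DsRedx reporter. TPM is scaled per gene length and per library and keeps no sequencing depth, so the precision behind a low value is unknown. Genes reaching 1 TPM numbered between 6469 and 10655 per library, with mutant epidermis 2 and 4 and mutant gill 8 lowest. Summed over the 12 myeloid markers looked for, levels were 1686 to 3539 TPM in sibling and 24.8 to 198.6 TPM in mutant epidermis, and 1033 to 2620 TPM and 1.08 to 311.2 TPM in gill, while ptprc and csf1ra, which define most leukocytes and macrophages, were listed at 0 in all 27 libraries. The 10 neuroendocrine and sensory markers summed to 17.6 to 229.9 TPM in sibling and 562.8 to 7912 TPM in mutant epidermis, and to 25.9 to 651.5 TPM and 2604 to 6379 TPM in gill. Markers of epithelium were high in all 4 groups, from 1746 to 13564 TPM in sum. In epidermis they summed to 3411 to 6486 TPM in sibling and 1746 to 5449 TPM in mutant libraries. In the test described below, 2 of these 5 markers were called lower in mutant epidermis and 0 higher, beside 8.69% and 4.13% of all tested genes. These were krt8 (-1.54) and cdh1 (-1.80), and in gill 0 were called. The marker levels that moved with genotype did so along with the integrin changes below, and their part in those changes was not tested. In libraries of pooled cells, fewer cells of a type and less RNA per cell cannot be told apart.

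Few integrin genes were detected in any 1 library. In epidermis, sibling libraries held 5.57 ± 2.07 subunits at 1 TPM or more (SD, n = 7) and mutant libraries 3.29 ± 1.8 (SD, n = 7). In gill these numbers were 6.8 ± 0.837 for siblings (SD, n = 5) and 6.5 ± 4.28 for mutants (SD, n = 8). The lowest count was 0, in mutant epidermis 2, and the highest was 16, in mutant gill 3. Of the 33 subunits, 3 (itga6a, itga8 and itgb3a) were listed at 0 in every library, as was itgbl1; 5 never reached 1 TPM; 19 reached it in 1 to 4 libraries; and 9 reached it in 5 or more. The level of the integrin set therefore rested on few genes. The highest subunit was itgb1b in 7 of 7 sibling and 3 of 7 mutant epidermal libraries and in 3 of 5 sibling and 2 of 8 mutant gill libraries, and in the other 12 libraries it was itgav, itgb2, itga3a, itga1, itga11b, itga2.1 or itgb6.

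**Figure D1:**
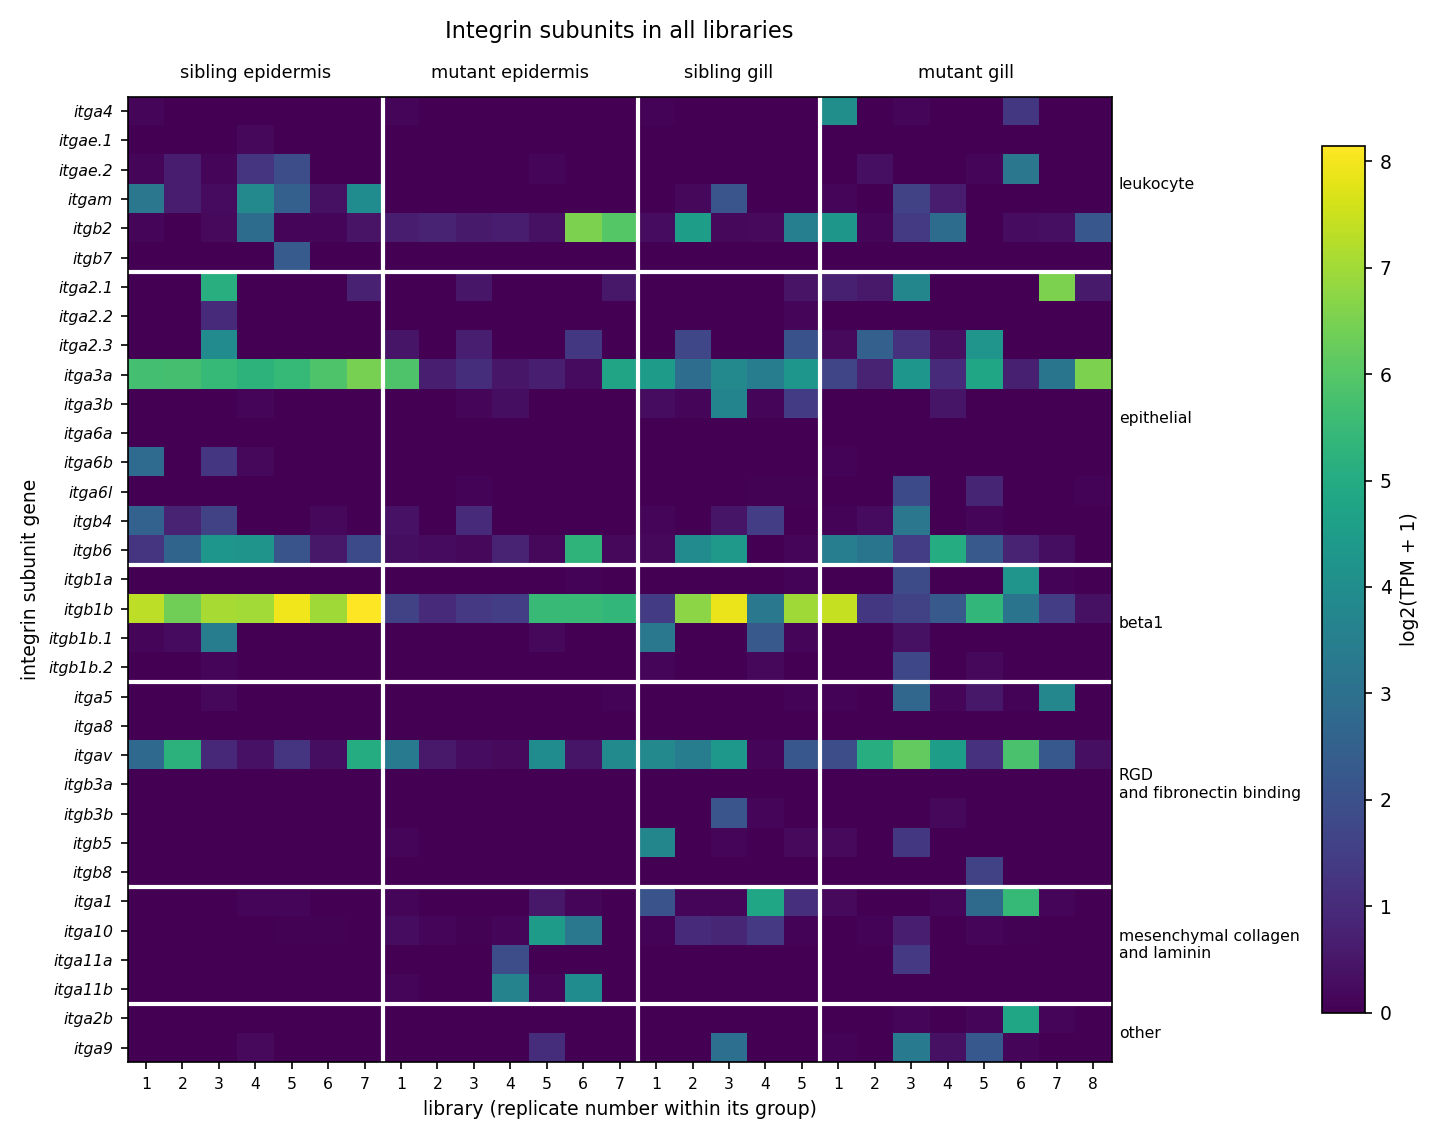
Level of the 33 integrin subunits (rows, by class) in the 27 libraries (columns, by group), coloured by log2(TPM + 1). The rows of itgb1b and itga3a are filled across all 7 sibling epidermal libraries. Of the 33 rows, 5 never reach 1 TPM and 19 reach it in 1 to 4 libraries.

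Of the 35 members, 10 passed the filter for testing (1 TPM or more in at least 5 libraries): itga1, itga2.3, itga3a, itgam, itgav, itgb1b, itgb1bp1, itgb2, itgb4 and itgb6. In epidermis 3 of these 10 fell in mutants and 0 rose, beside 8.69% of all 13465 tested genes called lower and 4.13% called higher. In gill 0 were called lower and 0 higher, beside 3.87% and 2.34% of all tested genes, and 1 of the 10, itgb1b, had an unadjusted p under 0.05. The calls come from limma, an empirical Bayes linear model fitted to log2(TPM + 1) over all genes and libraries, at a Benjamini-Hochberg adjusted p of 0.05. A gene that passed the filter through the group in which it is high had to differ in some degree, as holds for itgam, so the count over the 10 says nothing about the 25 that were not tested.

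The beta1 subunit gene itgb1b, whose product is the shared partner of most matrix-binding alpha chains, was the highest integrin of sibling epidermis and fell in mutant epidermis. In sibling epidermis its lowest, median and highest values were 82.7, 135.3 and 281.4 TPM, and it was the highest of all subunits in 7 of 7 libraries, making up 63.3 ± 11.4% (SD, n = 7) of the summed integrin TPM. In mutant epidermis the lowest, median and highest were 0.938, 2.01 and 43.8 TPM, so that the groups did not overlap. The mutant libraries lay at 2 levels. Libraries 5, 6 and 7 held 43.8, 43.4 and 41.2 TPM, and libraries 1 to 4 held 2.01, 0.938, 1.56 and 1.81 TPM. In these same libraries spic stood at 125.4, 7.37 and 35.8 TPM (5, 6 and 7) and at 42.7, 32.6, 21.3 and 7.38 TPM (1 to 4), ranges that overlap. The mean change of itgb1b was -4.16 on the log2(TPM + 1) scale (SE 1.05, 95% interval -6.30 to -2.03, limma adjusted p = 0.00581), lower in 7 of 7 mutant libraries than in every sibling library.

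In gill, itgb1b was uneven within each genotype. The 5 sibling libraries held 1.74, 105.5, 239.6, 8.66 and 124.4 TPM, with 3 of them high and 2 low. Among the 8 mutant libraries the lowest, median and highest values were 0.276, 2.93 and 172.3 TPM, the highest in library 1 and the next, 41.2 TPM, in library 5. The groups overlapped, and the change of -2.39 (SE 1.12, 95% interval -4.67 to -0.12, limma adjusted p = 0.234; the unadjusted p was under 0.05) did not pass. The 3 other beta1 genes were sparse: itgb1a reached 1 TPM in 2 libraries, with 18 TPM in mutant gill 6, itgb1b.1 in 3 libraries, with 9.98 TPM in sibling epidermis 3, and itgb1b.2 in 1 library at 2.38 TPM. No source used here says how reads that fit more than 1 of these similar genes were counted, so the division among them is uncertain. The sum of the 4 genes was 167.4 ± 71.9 TPM (SD, n = 7) in sibling and 19.3 ± 22.1 TPM (SD, n = 7) in mutant epidermis. In gill it was 98.6 ± 94.6 TPM for siblings (SD, n = 5) and 31.8 ± 58.6 TPM for mutants (SD, n = 8). It reached 10.5 TPM in sibling gill 1, where itgb1b held 1.74 TPM, and 25.7 TPM in mutant gill 6, mostly from itgb1a.

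The laminin-receptor chain itga3a, a partner of beta1 on keratinocytes, was the second gene that fell in mutant epidermis. Sibling epidermal libraries held 37.5, 51.7 and 87.4 TPM (lowest, median and highest). Mutant epidermal libraries 1 to 7 held 58.1, 0.624, 1.07, 0.413, 0.597, 0.187 and 25.7 TPM, so 6 of 7 lay below every sibling library and library 1 lay among the siblings. The change was -3.74 on the log2(TPM + 1) scale (SE 0.94, 95% interval -5.65 to -1.84, limma adjusted p = 0.00543). The mutant library with itga3a at the sibling level, library 1, was low for itgb1b, and of the 3 mutant libraries with itgb1b near 40 TPM or above only library 7 held itga3a above 1 TPM. Mutant epidermis 1 also had the highest myeloid marker sum of its group, 198.6 TPM.

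In gill, sibling libraries held itga3a at 21.6, 6.51, 13.3, 9.64 and 18.6 TPM, all below the lowest sibling epidermal library. The change between sibling gill and sibling epidermis was -1.92 (SE 1.03, 95% interval -4.01 to 0.16, limma adjusted p = 0.662) and did not pass. Mutant gill libraries ran from 0.636 through a median of 5.08 to 92.5 TPM, with 4 of 8 below and 2 of 8 above all siblings. The mutant change was -0.93 (limma adjusted p = 0.672). Between the tissues the mutant effect on itga3a differed by 2.82 (SE 1.37, 95% interval 0.03 to 5.60, limma adjusted p = 0.503; the unadjusted p was under 0.05), so a difference between the tissues was not established. Its paralogue itga3b reached 1 TPM in 2 libraries, sibling gill 3 and 5, at 11.7 and 1.69 TPM.

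**Figure D2:**
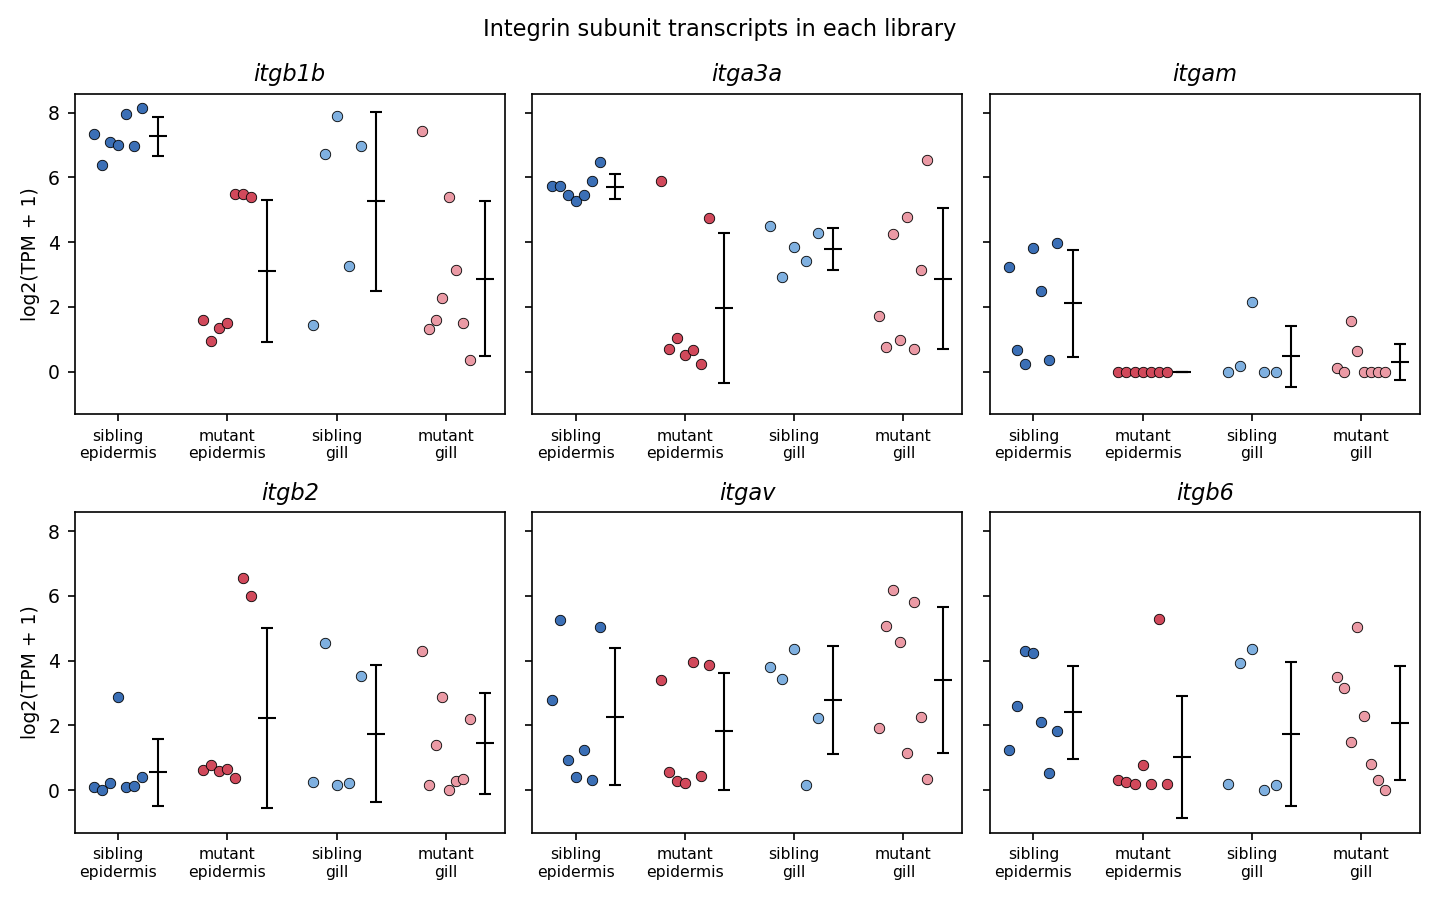
Level of 6 integrin genes in each library (points; vertical axis log2(TPM + 1)), with the group mean and SD on that scale. Sibling epidermal points of itgb1b lie between 82.7 and 281.4 TPM, above all mutant epidermal points, and 6 of 7 mutant epidermal points of itga3a lie below all siblings.

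Among the other epithelial subunits, itgb6, the partner of alphav on epithelia, was detected most often, at 1 TPM or more in 14 libraries. Its lowest, median and highest values were 0.449, 3.32 and 18.5 TPM in sibling epidermis. In mutant epidermis it lay between 0.129 and 0.704 TPM in 6 of 7 libraries and at 38 TPM in library 6, and the change was -1.38 (SE 0.96, 95% interval -3.33 to 0.57, limma adjusted p = 0.403). In sibling gill it stood at 0.132, 14.3, 19.7, 0 and 0.11 TPM, and in mutant gill it ran from 0 through a median of 2.83 to 31.9 TPM, again overlapping (change 0.35, limma adjusted p = 0.898). The alpha2 genes, whose mammalian counterpart is a collagen receptor of keratinocytes, were high in single libraries: itga2.1 stood at 92 and 12.3 TPM in mutant gill 7 and 3 and at 33.5 TPM in sibling epidermis 3, and was at 0.694 TPM or lower in the other 24. Its neighbour itga2.3 reached 17.9 TPM in mutant gill 5 and 14.3 TPM in sibling epidermis 3, and itga2.2 never reached 1 TPM.

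The hemidesmosome pair of basal keratinocytes was near the floor. The gene itgb4 reached 1 TPM in 5 libraries with a highest value of 8.45 TPM in mutant gill 3, and its mutant change was -0.53 (95% interval -1.52 to 0.45) in epidermis and 0.05 (SE 0.52) in gill. Of its alpha partners, itga6a was listed at 0 throughout, itga6b reached 6.23 and 1.43 TPM in sibling epidermis 1 and 3, and itga6l reached 2.56 TPM in mutant gill 3. The basal keratinocyte markers, a list that holds itgb4 and itga6b, summed to 212.2 to 885.0 TPM in sibling and 1195 to 11620 TPM in mutant epidermis, nearly all of it from the keratin genes krt5 and krt91. The other markers of that list were low: krtt1c19e was listed at 0 in every library, col17a1a reached at most 2.64 TPM in epidermis, and tp63, the basal keratinocyte transcription factor, at most 5.45 TPM in sibling and 0.178 TPM in mutant epidermis. Of the 5 tested markers of that list, 2 were called higher in mutant epidermis and 0 lower, beside 4.13% and 8.69% of all tested genes. The 2 were krt91 (change 3.90, limma adjusted p = 0.000803) and krt5 (2.44, adjusted p = 0.00188). The others, itgb4, tp63 and krt15, did not pass (-0.53, -0.64 and -0.77). The median change of the 5 is thus that of itgb4 itself.

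The leukocyte alpha chain itgam, whose mammalian counterpart pairs with beta2 on myeloid cells, was the third gene that fell in mutant epidermis. The 7 sibling epidermal libraries held 8.46, 0.581, 0.179, 13.2, 4.59, 0.287 and 14.7 TPM. All 7 mutant epidermal libraries were listed at 0, so the groups did not overlap although 3 sibling libraries lay under 1 TPM. The difference of mean log2(TPM + 1) was -2.11 (SE 0.56, limma adjusted p = 0.00841); its size depends on the pseudocount and is no fold change, since 1 group is at 0. In gill, itgam was at 1 TPM or more only in sibling library 3 (3.46 TPM) and mutant library 3 (1.98 TPM), and the change was -0.17 (95% interval -1.38 to 1.03). The mutant effect on itgam differed between gill and epidermis by 1.94 (SE 0.81, 95% interval 0.29 to 3.59, limma adjusted p = 0.41; the unadjusted p was under 0.05), which did not pass.

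The beta2 gene itgb2, the common beta chain of leukocyte integrins, did not follow itgam. In sibling epidermis it lay between 0 and 0.332 TPM in 6 of 7 libraries and at 6.41 TPM in library 4. In mutant epidermis it stood at 92.4 and 63.4 TPM in libraries 6 and 7 and between 0.287 and 0.7 TPM in the other 5. Sibling gill held 0.195, 22.5, 0.12, 0.165 and 10.5 TPM, and mutant gill ran from 0 through a median of 0.947 to 18.7 TPM. Thus itgb2 reached 1 TPM in 9 of the 27 libraries, some of each genotype, and was listed at 0 in 2, with the rest in between. The mutant change was 1.67 in epidermis (SE 0.99, 95% interval -0.34 to 3.69, limma adjusted p = 0.308) and -0.30 in gill (SE 1.06, 95% interval -2.45 to 1.84, limma adjusted p = 0.916). In mutant epidermis 6 and 7 the myeloid markers summed to 67.4 and 48.1 TPM, within the range of the other mutant epidermal libraries. The T and NK cell markers summed to 19.8 and 16.5 TPM there, within the 0.24 to 23.9 TPM of all mutant epidermal libraries. Of that list, cd3eap ran from 0.149 through a median of 16.2 to 23.9 TPM in mutant epidermis. It was the only 1 of the list with a mean of 1 TPM or more there, and it is not specific to T or NK cells. The list members zap70, cd4-1, cd8a and il2rb were listed at 0 in all mutant epidermal libraries, and lck reached at most 0.336 TPM. Library 6 had a fibroblast marker sum of 74.9 TPM, against 0.825 TPM or less in the others. Nearly all of that sum came from dcn (65.5 TPM) and col1a2 (9.05 TPM). In mutant epidermis col1a1a reached at most 0.365 TPM and pdgfra was listed at 0. Library 7 stood apart in other lists. Its thrombocyte markers summed to 19.5 TPM against at most 1.25 TPM in the others. Of these 7 markers, mpl, itga2b, gp9 and fn1b were listed at 0 in all mutant epidermal libraries. Only 1 of the 7 had a mean of 1 TPM or more in that group. The neuroendocrine markers of library 7 summed to 562.8 TPM against 3880 TPM or more, and its superficial keratinocyte markers to 234.5 TPM against 1672 TPM or more. The part of these in the itgb2 values was not tested.

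The remaining leukocyte subunits were rarer still. The beta7 gene itgb7 reached 1 TPM only in sibling epidermis 5, at 4.07 TPM, where itgae.2, an alphaE gene, stood at 2.8 TPM. The highest itgae.2 value, 8.46 TPM, was in mutant gill 6, and itgae.1 never reached 1 TPM. The alpha4 gene itga4 reached 15.1 TPM in mutant gill 1 and 1.47 TPM in mutant gill 6. A further row, si:dkey-32n7.4, which the reference table names itgam.1, lies outside the symbol rule and reached at most 4.58 TPM.

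Of the RGD- and fibronectin-binding subunits, only itgav, the alphav chain, was frequent, at 1 TPM or more in 18 libraries. Its lowest, median and highest values were 0.232, 1.34 and 36.8 TPM in sibling epidermis and 0.161, 0.487 and 14.6 TPM in mutant epidermis. Sibling gill held 13.1, 9.85, 19.4, 0.115 and 3.64 TPM, and mutant gill 0.259, 13.2 and 71.3 TPM (lowest, median and highest). The transcript was the highest subunit in 3 of 8 mutant gill libraries (71.3, 54.8 and 32.6 TPM) and in none of the other 19 libraries. The groups overlapped in both tissues, with changes of -0.45 (SE 1.06, 95% interval -2.61 to 1.70) in epidermis and 0.61 (SE 1.13, 95% interval -1.68 to 2.91) in gill. The fibronectin receptor chain itga5 reached 12.7 and 5.51 TPM in mutant gill 7 and 3, itgb5 reached 12.4 TPM in sibling gill 1, itgb3b 3.43 TPM in sibling gill 3 and itgb8 1.96 TPM in mutant gill 5.

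The collagen-binding subunits of mesenchyme were absent at 1 TPM from all 7 sibling epidermal libraries. In mutant epidermis, itga10 stood at 21.8 and 8.64 TPM in libraries 5 and 6, itga11b at 11.5 and 14.6 TPM in libraries 4 and 6, and itga11a at 2.8 TPM in library 4; of these 3 genes none passed the filter for testing. The fibroblast markers summed to 0.742, 0.0581 and 74.9 TPM in mutant epidermis 4, 5 and 6, the last nearly all from dcn and col1a2. The alpha1 gene itga1 stood at 27 TPM in sibling gill 4, where it was the highest subunit, and at 42.8 TPM in mutant gill 6. The thrombocyte integrin itga2b reached 1 TPM in a single library, mutant gill 6, at 26.7 TPM; that library also had the highest sum of the thrombocyte markers, 108.6 TPM with itga2b itself in the list, and of the endothelial markers, 81.3 TPM. The alpha9 gene itga9 reached at most 9.11 TPM, in mutant gill 3. Mutant gill 3, with 16 subunits at 1 TPM, was among the libraries with the most genes at 1 TPM, 10633, and had an ionocyte marker sum of 4618 TPM, the highest of all libraries.

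Of the 2 members that are no subunits, itgbl1 was listed at 0 in every library and itgb1bp1 was called in no contrast. The gene itgb1bp1, whose mammalian product binds the beta1 tail and restrains activation, ran from 8.94 through 20.7 to 78.7 TPM in sibling epidermis and from 0.255 through 1.35 to 64 TPM in mutant epidermis. The change of -2.30 (SE 1.15, 95% interval -4.63 to 0.04, limma adjusted p = 0.211) did not pass, and in gill it was -0.15 (95% interval -2.63 to 2.34). Sibling gill held 0.286 to 50 TPM and mutant gill 0 to 109.8 TPM, so the gill groups overlapped.

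**Figure D3:**
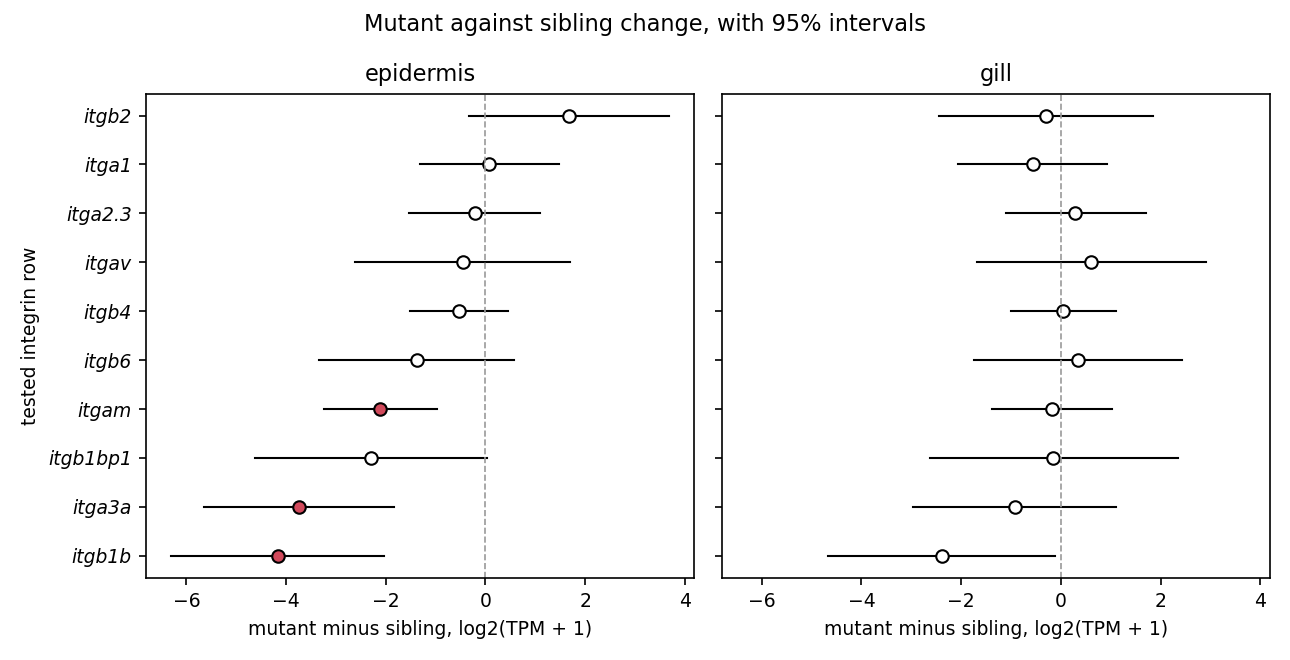
Change of the 10 tested integrin rows in mutants against siblings (horizontal axis, difference of mean log2(TPM + 1)) in epidermis and gill, with 95% intervals; filled red points passed an adjusted p of 0.05. In epidermis itgb1b (-4.16), itga3a (-3.74) and itgam (-2.11) passed, and in gill no row did.

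Whether a cell could form a given receptor was described by the libraries in which both partners reached 1 TPM; since a library pools 30 cells, the partners need not come from the same cell. An alpha3 gene and a beta1 gene were together in 7 of 7 sibling and 3 of 7 mutant epidermal libraries, and in 5 of 5 sibling and 5 of 8 mutant gill libraries. The pair of itgav with a beta1 gene was met in 4 of 7, 3 of 7, 4 of 5 and 7 of 8 libraries in the same order of groups, and that of itgav with itgb6 in 4, 0, 2 and 5. The leukocyte pair of itgam with itgb2 was met in 1 sibling epidermal and 1 mutant gill library, the pair of an alphaE gene with itgb7 in 1 sibling epidermal library, and that of itga4 with itgb7 in none of the 27. With a beta1 gene, itga4 was met in 2 libraries, both of mutant gill. In 3 of the 4 sibling epidermal libraries with itgam at 1 TPM, itgb2 thus lay below 1 TPM. An alpha6 gene and itgb4 were together in 2 sibling epidermal libraries and 1 mutant gill library.

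Summed by class, epithelial subunits exceeded leukocyte subunits in 23 of 27 libraries. These were 7 of 7 sibling and 5 of 7 mutant epidermal libraries and 5 of 5 sibling and 6 of 8 mutant gill libraries. Some of these orders were between low or close sums (epithelial, then leukocyte). They were 0.813 and 0.7 TPM in mutant epidermis 2, 1.35 and 0.579 TPM in library 4 and 0.727 and 0.396 TPM in library 5. Sibling gill 2 held 23.2 and 22.6 TPM. A single gene made up most of some epithelial sums, as itga3a with 92.5 of 93.1 TPM in mutant gill 8 and itga2.1 with 92 of 100.2 TPM in mutant gill 7. In epidermis the epithelial sum was 69.6 ± 23.8 TPM for siblings (SD, n = 7) and 18.7 ± 23.4 TPM for mutants (SD, n = 7), and in gill it was 25.2 ± 12.2 TPM for siblings (SD, n = 5) and 43.6 ± 36.6 TPM for mutants (SD, n = 8). The leukocyte sum was 8.32 ± 8.1 TPM (SD, n = 7), 22.7 ± 38.7 TPM (SD, n = 7), 7.43 ± 9.48 TPM (SD, n = 5) and 7.37 ± 11.3 TPM (SD, n = 8) in the same order. The 4 libraries with the leukocyte sum on top were mutant epidermis 6 and 7, through itgb2, and mutant gill 1 and 6, through itga4 with itgb2 and through itgae.2. In mutant epidermis the median leukocyte sum was 0.633 TPM against 8.69 TPM in siblings, the opposite order from the means, because 2 of the 7 mutant libraries carried nearly all of the sum.

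**Figure D4:**
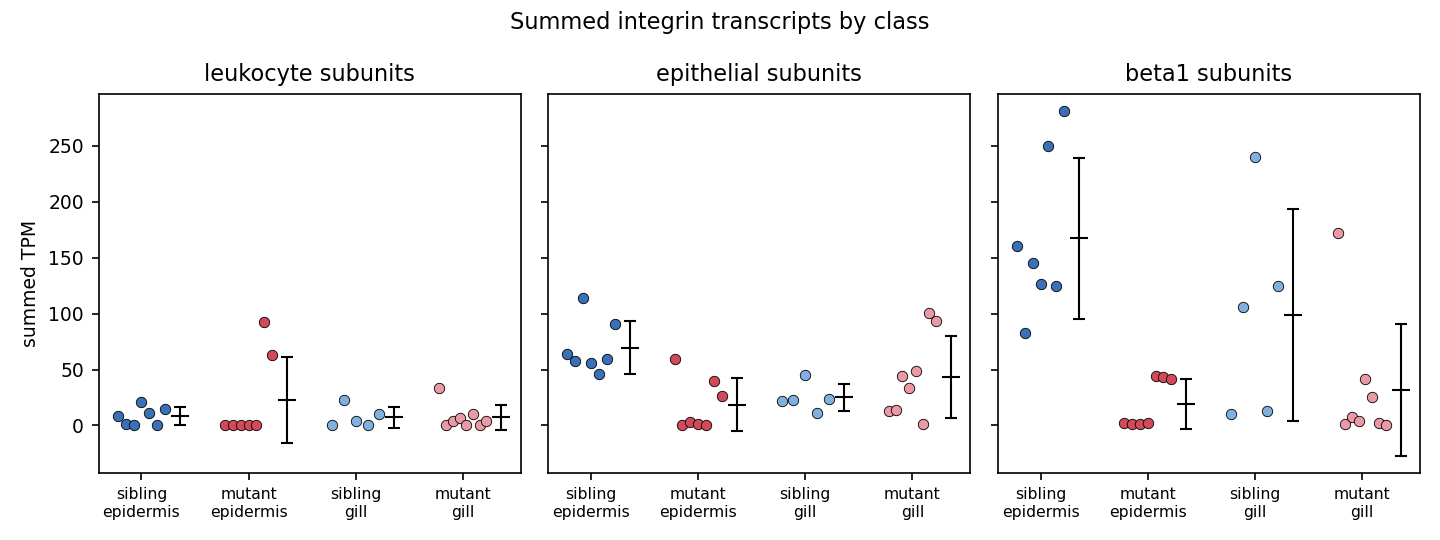
Summed TPM of the leukocyte, epithelial and beta1 integrin subunits in each library (points), with the group mean and SD. The epithelial and beta1 sums of sibling epidermis reach 113.6 and 281.4 TPM, and 2 mutant epidermal libraries stand out in the leukocyte sum at 92.4 and 63.4 TPM.

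For the difference between the tissues in the mutant effect, 0 of the 10 tested members were called higher and 0 lower, beside 0.0371% and 0.0223% of all tested genes; itga3a and itgam, given above, had an unadjusted p under 0.05. Between sibling gill and sibling epidermis, 0 were called higher and 0 lower in limma, beside 0.631% and 0.327%. There the unadjusted p was under 0.05 for itga1, higher in gill by 1.62 (SE 0.76, limma adjusted p = 0.555), and for itgam, with a change of -1.65 (SE 0.61, adjusted p = 0.328). Between mutant gill and mutant epidermis, 0 were called higher and 0 lower, beside 3.4% and 0.824%, and none of the 10 had an unadjusted p under 0.05. The median change of the 10 was -0.96 in epidermis, where that of all tested genes was -0.27, and -0.16 in gill, where that of all tested genes was -0.03.

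Some of the genes that switch leukocyte integrins on fell in mutants. Of 21 genes in the list of inside-out activation, 16 were tested. The list also holds genes that restrain activation, such as rasa3 and sharpin, so its counts and medians mix both kinds. In epidermis 7 of the 16 fell and 0 rose, beside 8.69% and 4.13% of all tested genes, with a median change of -1.77 against -0.27 over all tested genes. In gill 3 of the 16 fell and 0 rose, beside 3.87% and 2.34%, with a median change of -1.39 against -0.03; the other 13 did not pass, among them rasa3 at 1.48 and rap1aa at 1.29 (limma adjusted p = 0.468 and 0.521), which are named after their values were seen. Kindlin-3 gene fermt3b stood at 26.2, 113.5 and 262.0 TPM (lowest, median and highest) in sibling and at 0.285, 0.414 and 2.33 TPM in mutant epidermis, without overlap. Its change was -5.90 (SE 0.76, limma adjusted p = 6.25e-07) in epidermis and -4.03 (SE 0.81, adjusted p = 0.00124) in gill, where siblings held 19.5 to 144.4 TPM and mutants 0 to 28.2 TPM, with overlap. The adaptor fybb, which in mammals couples antigen receptors to integrins, fell from 254.6 ± 31.7 TPM (SD, n = 7) to 24.6 ± 24.9 TPM (SD, n = 7) in epidermis (change -3.97, limma adjusted p = 2.35e-06). The gene cyth1b, for a cytohesin that in human cells binds the beta2 tail, fell from 68.5 ± 38.8 TPM (SD, n = 7) to 0.648 ± 0.221 TPM (SD, n = 7), a change of -5.22 (limma adjusted p = 0.000108). Talin gene tln1 fell by 2.89 in epidermis (SE 0.80, limma adjusted p = 0.0124). In gill the other 2 that fell were rapgef1a, for an exchange factor of the Rap1 GTPase (change -3.25, limma adjusted p = 0.00648), and the kinase gene syk (change -3.21, adjusted p = 0.0152). Of these 2, syk also fell in epidermis (change -2.50, limma adjusted p = 0.03) and rapgef1a did not pass there (-1.33, adjusted p = 0.257). The genes fybb, cyth1b and tln1 did not pass in gill (changes -1.73, -1.95 and -1.33, limma adjusted p = 0.0734, 0.277 and 0.419). For the difference of the mutant effect between the tissues, 0 of the 16 were called, beside 0.0371% higher and 0.0223% lower of all tested genes. It was 2.24 for fybb and 3.26 for cyth1b (limma adjusted p = 0.297 and 0.397, both unadjusted p under 0.05). A difference between the tissues was thus not established. The epidermal count was 3 with detected genes as covariate and 3 with median centring, 5 to 8 when 1 library was left out, and the myeloid markers given above fell in the same libraries. The call for tln1 was lost with a pseudocount of 10 (adjusted p = 0.0796), median centring (0.128) and detected genes as covariate (0.0868), that for syk in gill with median centring (0.0811) and that for rapgef1a with the gill libraries fitted alone (0.0592).

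In the focal adhesion core, which links integrin tails to actin, some genes fell and others rose. Of 45 genes 29 were tested. In epidermis 9 of the 29 fell and 2 rose, beside 8.69% and 4.13% of all tested genes, with a median change of -0.75 against -0.27. In gill 5 fell and 2 rose, beside 3.87% and 2.34%, with a median change of 0.07 against -0.03. Among those that fell in epidermis were parvg and ilk, whose products bind each other. The parvin of blood cells, parvg, stood at 76.2 to 281.2 TPM in sibling and 0.239 to 3.04 TPM in mutant epidermis (change -5.91, limma adjusted p = 8.19e-07), and its change in gill was -5.56 (adjusted p = 1.76e-05). Integrin-linked kinase, ilk, stood at 23.6 to 152.2 TPM in sibling and 0.166 to 13.1 TPM in mutant epidermis (change -4.79, limma adjusted p = 1.39e-05). Its gill change of -1.53 (limma adjusted p = 0.291) did not pass. The mutant effect on ilk differed between the tissues by 3.27 (SE 1.08, limma adjusted p = 0.236, unadjusted p under 0.05), which did not pass either. The actin-regulating vaspa fell in both tissues, by 3.24 (limma adjusted p = 0.000415) and by 3.02 (adjusted p = 0.00397, and 0.0646 with median centring). Zyxin gene zyx also fell in both, with a change of -4.39 in epidermis (limma adjusted p = 0.000499) and -3.19 in gill (adjusted p = 0.0322).

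The 2 genes that rose were the same in both tissues, the vinculin gene vcla and the kindlin-2 gene fermt2, the kindlin of most tissues outside blood. Sibling epidermal libraries held vcla at 0.0646 to 0.44 TPM and mutant ones at 0.475 to 133.1 TPM (change 4.31, SE 0.93, limma adjusted p = 0.00125), and in gill siblings held 0.281 to 2.68 TPM and mutants 1.75 to 124.0 TPM (change 4.67, SE 0.99, adjusted p = 0.00233). For fermt2 the ranges were 0 to 0.32 TPM and 0.108 to 40.3 TPM in epidermis (change 3.22, SE 0.86, limma adjusted p = 0.00951), and 0 to 0.289 TPM and 1.62 to 81.1 TPM in gill (change 4.11, SE 0.92, adjusted p = 0.00391). The epidermal values of both were named after they were seen. At 1 TPM or more, fermt2 was found in 0 of the 12 sibling libraries and in 5 of 7 and 8 of 8 mutant libraries, so that it passed the filter through mutants alone, as did tnc below; vaspa passed through siblings alone, and vcla through mutants but for 1 sibling gill library. Genes that pass in this way had to differ in some degree. The neuroendocrine markers rose and the myeloid markers fell in the same libraries; their part was not tested. The gill count of 5 that fell rested on single libraries: it was 2 without any 1 of sibling gill 3, 4 or 5 or of mutant gill 1, 2, 4, 5 or 8, and 3 without any 1 of sibling epidermis 2, 4, 5 or 7, sibling gill 2 or mutant gill 7. In epidermis the call for fermt2 was lost with a pseudocount of 10 (adjusted p = 0.0677), with detected genes as covariate (0.0649) and without the 3 libraries with the fewest detected genes (0.0532).

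**Figure D5:**
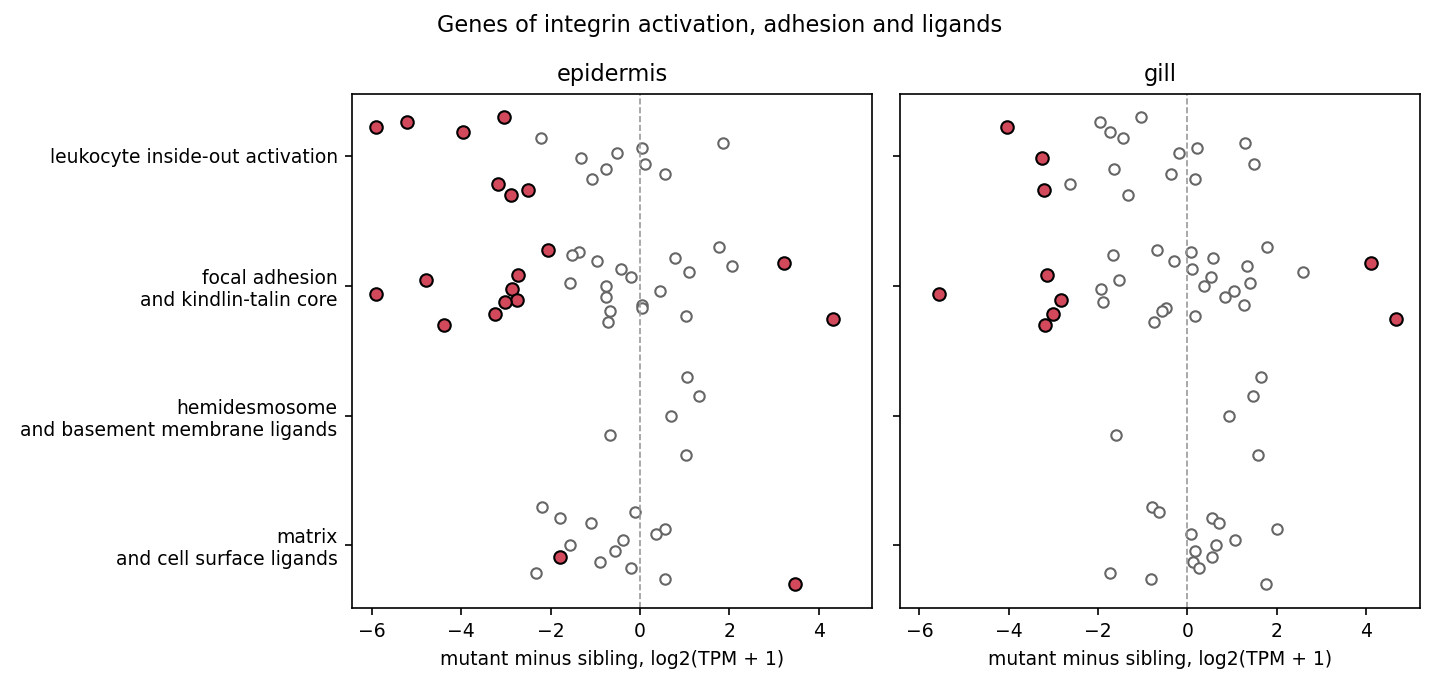
Change of each tested gene of 4 integrin pathway lists in mutants against siblings (difference of mean log2(TPM + 1)) in epidermis and gill; filled points passed an adjusted p of 0.05. In the leukocyte activation list all passing genes lie below 0, while the focal adhesion list has passing genes on both sides.

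Few ligands and anchors of epithelial integrins were expressed highly enough to test. Of 29 hemidesmosome and basement membrane genes 5 were tested. In either tissue 0 rose and 0 fell, beside 4.13% and 8.69% of all tested genes in epidermis and 2.34% and 3.87% in gill. With 5 genes tested, few calls or none would be met at those shares. An unadjusted limma p under 0.05 was met for lamb1a in epidermis (adjusted p = 0.192). In gill it was met for pleca, lamb1a and cd151l (adjusted p = 0.094, 0.23 and 0.247). Plectin gene pleca, which ties integrins to keratin filaments, differed by tissue: it stood at 216.6 ± 35.5 TPM (SD, n = 7) in sibling epidermis and 51.1 ± 32.9 TPM (SD, n = 5) in sibling gill, and at 148.2 ± 67.4 TPM (SD, n = 7) and 15.7 ± 10.6 TPM (SD, n = 8) in mutants. For gill against epidermis the change was -3.27 in mutants (SE 0.52, limma adjusted p = 0.000209) and -2.33 in siblings (SE 0.58, adjusted p = 0.0384). The sibling call held in 17 of 27 fits that left out 1 library. Of 39 matrix and cell-surface ligands 15 were tested. In epidermis 1 of the 15 rose and 1 fell, beside 4.13% and 8.69% of all tested genes. In epidermis, tenascin gene tnc rose from 0 to 0.782 TPM in siblings to 0.36 to 26.5 TPM in mutants (change 3.48, SE 0.75, limma adjusted p = 0.00118). E-cadherin gene cdh1, whose mammalian product is a ligand of alphaE with beta7, fell there from 239.3 ± 51.4 TPM (SD, n = 7) to 75 ± 41.7 TPM (SD, n = 7) (change -1.80, SE 0.40, limma adjusted p = 0.00171). In gill 0 of the 15 rose and 0 fell, beside 2.34% and 3.87% of all tested genes. The mutant effect on cdh1 differed between the tissues by 2.36 (SE 0.58, limma adjusted p = 0.099, unadjusted p under 0.05), which did not pass.

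The scaling of the libraries bears on the 3 integrin calls. Centring each library on the median of all tested genes moved the median change of all tested genes in epidermis from -0.27 to 0.91; itgb1b then still passed (-2.98, limma adjusted p = 0.0412), itga3a (-2.56, adjusted p = 0.0637), itgam (-0.93, adjusted p = 0.311) and cdh1 (-0.62, adjusted p = 0.335) did not, and itgb2 was called higher (2.86, adjusted p = 0.0451). All genes called higher and lower in epidermis numbered 556 and 1170 as deposited, 2034 and 408 under that centring and 889 and 1006 under quantile normalization, where the 3 integrin calls held.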

How the data were processed

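RNA of 27 libraries was analysed from 1 table of 32520 genes, in which the authors deposited TPM values with 1 column per library. The tools STAR, featureCounts and DESeq2 and the builds GRCz11 and danRer11 appear, without tool versions, in the submitters' processing notes; no source used here gives the annotation, the strand setting or the handling of reads that match several genes. TPM divides by gene length, rescales each library to a fixed sum and keeps no depth, so a value also depends on all other genes and no counting interval can be given.

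The 13465 genes that reached 1 TPM in at least 5 libraries were tested with limma 3.58.1 in R 4.3.3 (lmFit; eBayes with a trend). The model held the 4 group means of log2(TPM + 1) over all 27 libraries, which left 23 residual degrees of freedom. All p-values were two-sided and were adjusted over all tested genes by Benjamini-Hochberg. Mutants were compared with siblings within each tissue, these effects were compared between tissues, and gill was compared with epidermis within each genotype. The procedure was tested on simulated data in which only genes well expressed in sibling epidermis were changed. That test does not cover sparse genes such as most integrins. The members, classes, marker and pathway lists were chosen with earlier results of these data known. Members called in a mutant contrast or with a group mean of 10 TPM or more were given with values, and up to 4 genes per list and contrast with the smallest p were named. The gene itgb6 and other members were added for their class after their values were seen. Values of some named list genes in the other tissue, such as syk and zyx, were also added after they were seen. The reference names table held all 35 member identifiers. No 2 libraries were duplicates (highest correlation 0.742).

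Alternatives were pseudocounts of 0.1 and 10; testing every gene, or only genes at 5 TPM in 10 libraries; quantile normalization; centring on the library median; array weights; fitting only the libraries compared; detected genes as covariate; a replicate block; a minimum log2 change of 1; and leaving out each library in turn or the 3 with the fewest detected genes. Median centring over the 1733 genes at 1 TPM in every library, and all alternatives for the lists, were added after the data were seen.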

Additional observations from a re-analysis of the deposited data

Results flagged for a closer look

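In 27 groups of values, those of 7 members, a library was looked for whose gap to its nearest neighbour took an unusual share of the group's range. With normally distributed values chance marks about 1 in 20 groups, and 5 were marked here. Groups with many values at 0, such as itga2.1 in sibling gill, are not so distributed, so the 5 cannot be read as an excess. All 5 were a single library above the others. For itga2.1 these were sibling epidermis 3, at 33.5 TPM, and sibling gill 5, at 0.341 TPM, where the other sibling gill libraries were listed at 0. For itgam they were sibling gill 3, at 3.46 TPM, and mutant gill 3, at 1.98 TPM. For itgb2 it was sibling epidermis 4, at 6.41 TPM.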

How the results depend on the processing

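In epidermis the count of 3 integrin members that fell held in 27 of 27 fits that left out 1 library (itgb1b -4.56 to -3.80, itga3a -4.39 to -3.46, itgam -2.43 to -1.80), without the 3 libraries with the fewest detected genes, and with the added centring over genes detected in every library. The stricter filter gave 2, since itgam was then not tested, and median centring gave 2, of which 1 was higher. The gill, tissue and interaction counts were 0 under every alternative run. The fit with the replicate number as a replicate block gave 3 in epidermis and 0 in gill. Deviations of same-numbered libraries correlated at 0.01 to 0.06 in epidermis and -0.03 to 0.07 in gill, which gave no sign of pairing. Libraries of few cells scatter widely, so low correlations cannot exclude that same-numbered libraries share an animal or a sort.

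Genes that fell in the leukocyte activation list numbered 7 in epidermis, but 3 with median centring and 3 with detected genes as covariate, and 3 in gill, but 5 with quantile normalization; leaving out 1 library gave 5 to 8 and 3 to 4. In the focal adhesion list the 9 of epidermis became 5 with a pseudocount of 10 and 4 with median centring (6 to 9 leaving out 1 library). The 5 of gill became 1 with median centring, 2 with the contrast's libraries alone and without the 3 libraries with the fewest detected genes, and 3 with a pseudocount of 10, detected genes as covariate or the replicate block (2 to 5 leaving out 1 library). The cause was not tested. No depth is known, so a subunit under 1 TPM may be present but not detectable.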

Other observations

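Between mutant gill and mutant epidermis, where no integrin was called, cdh1 was higher in gill by 2.55 (SE 0.39, limma adjusted p = 0.000124), and so were the tetraspanin gene cd81a (4.15, SE 0.90, adjusted p = 0.00498), the pinch gene lims1 (2.99, SE 0.68, adjusted p = 0.00733) and fybb (2.35, SE 0.53, adjusted p = 0.0071). In mutant epidermis lims1 stood at 0.368 to 42.2 TPM and in mutant gill at 33.9 to 114.2 TPM. The gene cd81a reached 1 TPM in 0 of 7 sibling and 1 of 7 mutant epidermal libraries. In gill it did so in 4 of 5 sibling and 7 of 8 mutant libraries. It thus passed the filter through gill, and some difference between the tissues was built in. The calls for cd81a, lims1 and fybb were lost when the libraries of that contrast were fitted alone (adjusted p = 0.0683, 0.0883 and 0.13). They were also lost with detected genes as covariate for cd81a (0.0988) and fybb (0.085), with quantile normalization for lims1 (0.0658) and fybb (0.0632), and with median centring for lims1 (0.0948) and fybb (0.115). The call for cdh1 held in 39 of 39 alternatives. The gene ilk was also higher in mutant gill than in mutant epidermis (2.62, SE 0.71, limma adjusted p = 0.0292), a call that held in 28 of 39 alternatives. A row that the reference table names itgb3bp, si:dkey-148h10.5, lies outside the symbol rule; it reached 1 TPM in 6 libraries, with a highest value of 181.9 TPM.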
